A study of Mus musculus with 12 samples.

Results

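The TGF-beta ligand and receptor genes of the mouse were followed through heart formation as 8 named genes. They were taken by name from the deposited count table: the ligands Tgfb1, Tgfb2 and Tgfb3, the receptors Tgfbr1, Tgfbr2 and Acvrl1, and the co-receptors Tgfbr3 and Eng. These are 8 of the 48709 gene intervals in the table, and all 8 passed the filter on low counts, which left 28846 genes for testing. The cardiogenic region, the part of the embryo that forms the heart, had been dissected from embryos at day 8 (E8), day 8.5 (E8.5), day 9.5 (E9.5) and day 14 (E14) and its total RNA sequenced, with 3 libraries per stage and 12 in all. The stages differ in age alone as labelled, while the sources used here do not give genotype, strain, sex, treatment or the number of embryos per library. Nothing in the labels ties the libraries of a stage to separate embryos or litters, so the p-values describe the scatter among these libraries, part or all of which may be technical. Each library holds RNA of a whole dissected tissue, in which fewer cells of a type and less RNA per cell cannot be told apart.

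As background, the TGF-beta ligands are secreted as latent dimers that are held in the extracellular matrix until they are activated. An active dimer is bound by the type II receptor TGFBR2, which phosphorylates the type I receptor TGFBR1 (also called ALK5), and TGFBR1 in turn phosphorylates SMAD2 and SMAD3. Betaglycan, the product of Tgfbr3, presents ligand to TGFBR2 and is best known for the affinity it gives the receptors for TGF-beta2. Endothelial cells also carry the type I receptor ACVRL1 (ALK1) and the co-receptor endoglin, which bind BMP9 and BMP10 and signal through SMAD1, SMAD5 and SMAD9. In the developing heart the pathway is known for driving the endothelial-to-mesenchymal transition that forms the endocardial cushions, the primordia of the valves and septa.

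Library totals ran from 56574386 to 122785175 counts. The lowest count of any of the 8 genes in a library was 291, for Tgfb1 in E14 replicate 1, with a 95% Poisson interval of 259 to 326 that covers counting error only. Levels are given as CPM, counts scaled to the size of the library, here after a correction by the trimmed mean of M-values (TMM). Markers of cardiomyocytes were high in all 12 libraries, with a summed level of 7180 to 10500 CPM over 6 genes, none of them at 0. The library that stood apart most was E8.5 replicate 3. It had 1580 CPM summed over 5 markers of visceral endoderm and liver, beside 143 and 52.4 CPM in E8.5 replicates 1 and 2 and 17.5 to 17.9 CPM at E8. The E9.5 libraries differed too, with 8.4, 73.2 and 130 CPM of these markers in replicates 1, 2 and 3. Their summed epicardial markers were 35.7, 83.6 and 115 CPM. Calls of the 8 genes and of the pathway lists that involve E8.5 are therefore also given without E8.5 replicate 3. The part of that library in the spread at E8.5 was not tested.

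Between E9.5 and E14 the receptor gene Tgfbr2, the ligand gene Tgfb3 and the receptor gene Acvrl1 rose, 3.26-fold, 2.83-fold and 2.52-fold. Over the whole span from E8 to E14 these 3 and Eng were higher and Tgfb2 and Tgfbr1 were lower, while Tgfb1 and Tgfbr3 did not pass the test. The Eng call was lost without any 1 of 7 libraries (edgeR adjusted p = 0.0516 to 0.102). With all 12 libraries, changes among the 3 earlier stages were at most 0.53 on the log2 scale. Both calls among them ended when single libraries were left out. Without E8.5 replicate 3, 6 of the 8 genes passed from E8 to E8.5, beside 29.9% of all genes. From E8.5 to E9.5, 4 of the 8 then passed, beside 43.9%. Tgfb1 then differed by 0.75 and -0.82 in these intervals.

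Calls were made with edgeR's quasi-likelihood test at a Benjamini-Hochberg adjusted p under 0.05 over all genes tested. Between E8 and E8.5 the test called 0 of the 8 genes, where 1.18% of all tested genes were called. In that interval 2 of the 8, and 8106 of the 28846 genes, had an unadjusted p under 0.05. DESeq2 called 1 of the 8, Tgfbr3, and 4436 of all genes. From E8.5 to E9.5 the test called 2 of the 8, both lower, beside 37.0% of all genes (18.5% lower). In the last interval, to E14, it called 3 of the 8, all higher, beside 50.0% of all genes (25.4% higher). From E8 to E9.5 it called 0 of the 8, beside 24.8% of all genes, with 2 genes (Acvrl1 and Tgfbr1) at an unadjusted p under 0.05 (10685 of all genes) that DESeq2 called (8030 of all genes). From E8 to E14 it called 6 of the 8, with 4 higher and 2 lower, beside 60.7% of all genes (31.5% higher and 29.2% lower). With only 8 genes, these counts do not show that the group differed from all genes in how often it was called.

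The ranges of the 3 and 3 libraries were also compared. From E8 to E8.5 they did not overlap for 2 of the 8 genes, beside 26.6% of all tested genes, and from E8.5 to E9.5 for 1 of the 8, beside 43.5%. For E14 against E9.5 they did not overlap for 6 of the 8, beside 63.0%. For E9.5 against E8 the count was 5 of the 8, beside 50.2%, and for E14 against E8 it was 6 of the 8, beside 72.3%.

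The median log2 fold change of the 8 genes was 0.23 from E8 to E8.5, -0.33 from E8.5 to E9.5 and 0.20 from E9.5 to E14. All tested genes had medians of 0.02, -0.03 and 0.01 in the same intervals. Each stage enters several comparisons, so that their values are not independent. With the shared fit, libraries of the other stages also enter the filter, the scaling and the estimate of the spread.

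**Figure D1:**
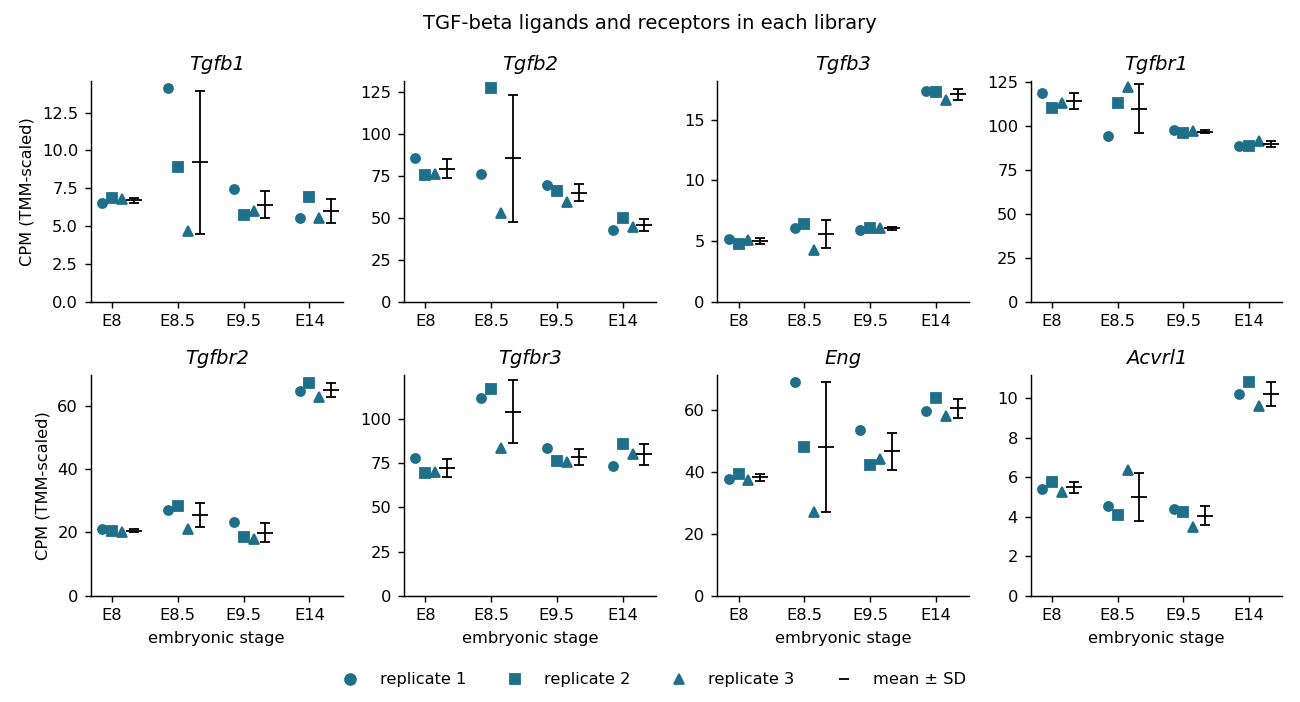
Level of each of the 8 genes in each of the 12 libraries, as CPM on TMM-scaled library sizes (vertical axis, from 0, with its own scale per gene) by embryonic stage (horizontal axis). Symbols are replicates and black bars the mean ± SD of 3 libraries. Tgfb3, Tgfbr2 and Acvrl1 are highest in the 3 E14 libraries, and Tgfb1, Tgfb2 and Eng spread most at E8.5.

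Tgfb2 encodes the ligand best known for its part in the outflow tract and the cushions. Per kilobase of exons it was the most abundant of the ligands in every stage mean (GRCm38, chr1:186622792-186705989, minus strand). In replicates 1, 2 and 3 its level was 85.5, 75.4 and 76.0 CPM at E8, and 75.8, 127 and 52.8 CPM at E8.5. At E9.5 it was 69.4, 65.7 and 59.4 CPM and at E14 42.5, 49.5 and 44.4 CPM. Every E14 library lay below every library of the other stages. The fall from E8 to E14 was 0.79 ± 0.24 on the log2 scale (SE, n = 3 libraries per stage; -0.79, 1.74-fold lower, edgeR adjusted p = 0.0131). In the last interval the difference was -0.51 ± 0.24 and did not pass (edgeR adjusted p = 0.0962). The spread of the 3 E8.5 libraries enters that test through the shared fit: the same interval passed without E8.5 replicate 2 (-0.52 ± 0.12, edgeR adjusted p = 0.00493), without E8.5 replicate 3 (-0.54 ± 0.16, 0.0127) and when the 2 stages were fitted alone (-0.54 ± 0.08, 9.46e-04). It also passed with DESeq2 (-0.53 ± 0.23, adjusted p = 0.0463) and with library offsets adjusted for a trend with gene span (-0.73 ± 0.19, edgeR adjusted p = 0.00745).

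Tgfb3 encodes the ligand known from palate fusion and from later mesenchyme (GRCm38, chr12:86056744-86079041, minus strand). Its level was 5.19, 4.76 and 5.11 CPM at E8, and 6.08, 6.43 and 4.28 CPM at E8.5. It was 5.89, 6.11 and 6.11 CPM at E9.5 and 17.4, 17.3 and 16.6 CPM at E14. The 3 E14 libraries stood well above the other 9, and the E8.5 libraries spanned those of E8 and E9.5. Tgfb3 rose by 1.50 ± 0.13 on the log2 scale from E9.5 to E14 (2.83-fold, edgeR adjusted p = 1.87e-06), and the rise was 1.45 to 1.51 with any 1 library left out. For E9.5 against E8 it passed without E8.5 replicate 3 (0.26, edgeR adjusted p = 0.0117) or when only E8 and E9.5 were fitted (0.25, 0.0342). A stretch of 5150 bases of the gene, 23.1% of its interval, lies over Ttll5 on the opposite strand, and the strand setting of the counting is not given in the sources used here. If the counts of Ttll5 were spread evenly over its interval, that overlap would hold 13.6% to 16.8% of the Tgfb3 counts at E9.5 and 5.06% to 6.31% at E14. Ttll5 itself differed by 0.09 ± 0.14 in the same interval and did not pass (edgeR adjusted p = 0.634). For E8 libraries the overlap would hold 16.7% to 18.3%, and for E8.5 libraries 20.1% to 24.2%. Ttll5 had a value of 0.52 ± 0.14 from E8 to E8.5, not called (edgeR adjusted p = 0.0638). Its next value, for E9.5 against E8.5, was -0.44 ± 0.14 and was called (0.0308). The part of Ttll5 counts in the small Tgfb3 differences among the earlier stages was not tested.

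Tgfb1, the ligand best known from endothelial, blood and immune cells, had low counts and no call in any of the 5 comparisons (GRCm38, chr7:25687002-25705077, plus strand). Its level was 6.52, 6.84 and 6.77 CPM at E8 and 14.1, 8.88 and 4.67 CPM at E8.5. It was 7.44, 5.75 and 6.02 CPM at E9.5 and 5.52, 6.92 and 5.54 CPM at E14. The E8.5 libraries spanned a 3.03-fold range, from below to above all the others, beside 1.05-fold to 1.29-fold at the other stages. Its E8.5 level differed from that of E8 by 0.46 ± 0.29 (edgeR adjusted p = 0.329) with all libraries and by 0.75 ± 0.18 without E8.5 replicate 3 (edgeR adjusted p = 0.0105).

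The promoters of Tgfb2, Tgfb1 and Tgfbr2 are shown because these genes followed different courses: a fall to E14, no called change and a rise to E14. A RefSeq (GRCm38.p6) promoter window was used only where its start was that of the gene's interval in the count table. Such a window was found for 5 of the 8 genes: Tgfb2, Tgfb1, Tgfbr1, Tgfbr2 and Eng. The 250 bases before each annotated start are printed 5′ to 3′ on the gene's strand. They cover chr1:186705990-186706239 (minus strand) for Tgfb2, chr7:25686752-25687001 (plus strand) for Tgfb1 and chr9:116175364-116175613 (minus strand) for Tgfbr2. Capitals mark matches, on either strand, to TATAAA (the TATA box), CACGTG (an E-box), GGGCGG (the GC box), CCAAT (the CCAAT box) and AGGAAG (an ETS-type site), and no match overlaps another.
Tgfb2: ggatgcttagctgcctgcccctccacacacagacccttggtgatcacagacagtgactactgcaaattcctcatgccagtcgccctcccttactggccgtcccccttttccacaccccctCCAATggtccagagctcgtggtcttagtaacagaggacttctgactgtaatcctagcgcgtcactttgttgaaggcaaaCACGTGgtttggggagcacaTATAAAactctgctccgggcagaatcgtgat
Tgfb1: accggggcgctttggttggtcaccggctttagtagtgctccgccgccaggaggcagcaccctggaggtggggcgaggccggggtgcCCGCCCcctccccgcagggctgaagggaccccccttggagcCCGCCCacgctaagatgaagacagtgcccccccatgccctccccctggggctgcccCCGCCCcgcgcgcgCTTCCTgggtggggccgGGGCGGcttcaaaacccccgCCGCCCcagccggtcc
Tgfbr2: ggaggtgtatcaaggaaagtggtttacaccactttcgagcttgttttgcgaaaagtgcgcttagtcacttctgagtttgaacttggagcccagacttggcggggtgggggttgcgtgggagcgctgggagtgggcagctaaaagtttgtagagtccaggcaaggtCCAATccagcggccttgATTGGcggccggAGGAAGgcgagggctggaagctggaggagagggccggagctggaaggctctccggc
The Tgfb2 window held TATAAA 31 bases before the start, CACGTG 51 before it and CCAAT 130 before it. Of 32851 windows of this length, 12.4% held TATAAA, 6.02% CACGTG and 33.8% CCAAT. The Tgfb1 window held 5 matches to GGGCGG and 1 to AGGAAG, motifs present in 32.7% and 29.5% of all windows. The Tgfbr2 window held CCAAT 85 and 68 bases before the start and AGGAAG 56 before it. The GC content of the windows was 53.6% for Tgfb2, 75.2% for Tgfb1 and 58.4% for Tgfbr2, beside a median of 52.4% (quartiles 45.2% and 61.2%) over all windows. Each match is a description of the letters only, and nothing measured here bears on binding.

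Tgfbr2, the type II receptor that every canonical TGF-beta signal passes through, changed most of the 8 genes in the last interval (GRCm38, chr9:116087698-116175363, minus strand). Its level was 21.1, 20.4 and 20.3 CPM at E8 and 27.2, 28.3 and 21.1 CPM at E8.5. It was 23.3, 18.6 and 18.0 CPM at E9.5 and 64.9, 67.3 and 63.0 CPM at E14. The E14 libraries stood far above all others. Tgfbr2 rose by 1.70 ± 0.12 on the log2 scale from E9.5 to E14 (3.26-fold, edgeR adjusted p = 4.04e-07), and by 1.63 to 1.82 with any 1 library left out. It had fallen by 0.35 ± 0.12 from E8.5 to E9.5 (-0.35, edgeR adjusted p = 0.0324), with overlapping libraries.

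By edgeR, the Tgfbr2 call of E9.5 against E8.5 ended without E8.5 replicate 1 (adjusted p = 0.0940), without E8.5 replicate 2 (0.115), without E9.5 replicate 2 (0.120) or 3 (0.132) and without any E14 library (0.0556 to 0.0579). With library offsets adjusted for a trend with gene span the value was -0.10 ± 0.09 (edgeR adjusted p = 0.412).

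Tgfbr1 encodes the type I receptor kinase, the partner of TGFBR2 in the same complex (GRCm38, chr4:47353222-47414931, plus strand). Its level was 119, 110 and 113 CPM at E8 and 94.6, 113 and 122 CPM at E8.5. It was 97.5, 95.9 and 96.9 CPM at E9.5 and 88.5, 88.8 and 91.7 CPM at E14. The E14 libraries were below all those of the other stages, by a small margin. Tgfbr1 fell by 0.35 ± 0.09 on the log2 scale from E8 to E14 (-0.35, 1.27-fold lower, edgeR adjusted p = 0.00383). No neighbouring interval passed: the values were -0.06 ± 0.09, -0.18 ± 0.09 and -0.11 ± 0.09 (edgeR adjusted p = 0.700, 0.114 and 0.311). For E9.5 against E8.5 Tgfbr1 passed without E8.5 replicate 1 (-0.28, edgeR adjusted p = 0.00964). For E9.5 against E8 it passed without E8.5 replicate 1 (-0.24, edgeR adjusted p = 0.0141) or 3 (-0.24, 0.0165). The genes of the receptor pair differed in direction at E14, with Tgfbr2 higher and Tgfbr1 lower than at E8.

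Tgfbr3, the betaglycan gene, was the longest of the 8 intervals, with 183060 bases (GRCm38, chr5:107106570-107289629, minus strand). Its level was 78.0, 69.2 and 69.9 CPM at E8 and 112, 117 and 83.8 CPM at E8.5. It was 83.5, 76.2 and 75.6 CPM at E9.5 and 73.6, 85.9 and 80.5 CPM at E14. All 3 E8.5 libraries were above all E8 and E9.5 libraries, replicate 3 only just above the highest E9.5 library. The difference from E8 to E8.5 was 0.53 ± 0.12 and just missed the threshold (edgeR adjusted p = 0.0507). It passed with DESeq2 (0.51 ± 0.12, adjusted p = 0.0014) and without E8.5 replicate 3 (0.63 ± 0.08, edgeR adjusted p = 8.59e-04). Tgfbr3 then fell by 0.41 ± 0.12 from E8.5 to E9.5 (-0.41, edgeR adjusted p = 0.0166).

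By edgeR, that call on Tgfbr3 ended without E8.5 replicate 1 (adjusted p = 0.0533) or 2 (0.0637) and without E9.5 replicate 2 (0.0617) or 3 (0.0631). With the gene span adjustment the fall to E9.5 became -0.04 ± 0.07 (edgeR adjusted p = 0.687), and the difference from E9.5 to E14 turned from 0.03 ± 0.12 to -0.35 ± 0.07 (edgeR adjusted p = 9.42e-04).

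Eng encodes endoglin, the endothelial co-receptor (GRCm38, chr2:32646595-32682669, plus strand). Its level was 37.6, 39.4 and 37.4 CPM at E8 and 69.0, 48.1 and 27.0 CPM at E8.5. It was 53.4, 42.3 and 44.0 CPM at E9.5 and 59.6, 63.9 and 57.9 CPM at E14. The E14 libraries were above all those of E8 and E9.5, while the E8.5 libraries spanned 2.55-fold, from the lowest to the highest of all 12. Eng rose by 0.67 ± 0.25 on the log2 scale from E8 to E14 (1.59-fold, edgeR adjusted p = 0.0358), and no neighbouring interval passed with all libraries. Without E8.5 replicate 3 the last interval did (0.35, edgeR adjusted p = 0.0354). The call of E14 against E8 ended without E8 replicate 1 (edgeR adjusted p = 0.0841), 2 (0.0723) or 3 (0.0868), without E8.5 replicate 2 (0.0516), without E14 replicate 1 (0.0798), 2 (0.102) or 3 (0.0697) and with no filter on low counts (0.0844).

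Acvrl1 encodes ALK1, the endothelial type I receptor that works with endoglin (GRCm38, chr15:101128522-101145336, plus strand). Its level was 5.42, 5.77 and 5.25 CPM at E8 and 4.54, 4.07 and 6.37 CPM at E8.5. It was 4.38, 4.26 and 3.50 CPM at E9.5 and 10.2, 10.8 and 9.61 CPM at E14. The E9.5 libraries were below all E8 libraries, and the E14 libraries above all others. Acvrl1 rose by 1.33 ± 0.16 on the log2 scale from E9.5 to E14 (2.52-fold, edgeR adjusted p = 2.19e-05). From E8 to E9.5 its value was -0.44 ± 0.15, just outside the threshold (edgeR adjusted p = 0.0567), and it passed with DESeq2 (adjusted p = 0.0322) and without E8.5 replicate 2 (edgeR adjusted p = 0.0315) or 3 (0.00666). The value of E9.5 against E8.5 passed only without E8.5 replicate 2 (-0.43, edgeR adjusted p = 0.0493).

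**Figure D2:**
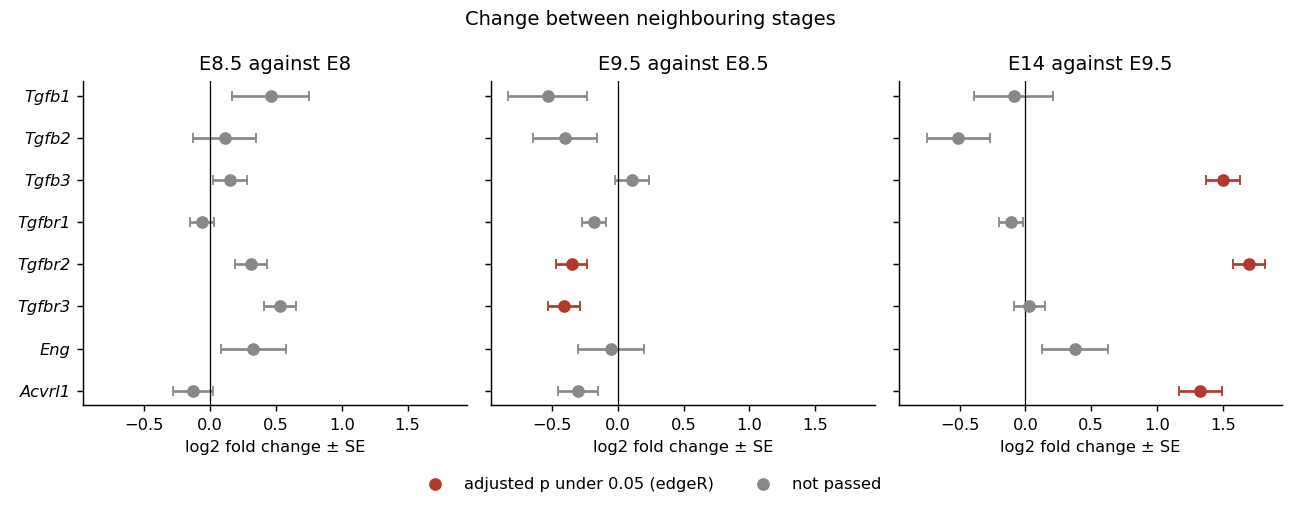
Log2 fold change ± SE from edgeR (horizontal axis) of each of the 8 genes (vertical axis) between neighbouring stages, with n = 3 libraries per stage. Red points passed an adjusted p under 0.05: Tgfbr2 and Tgfbr3 from E8.5 to E9.5 (-0.35 and -0.41), and Tgfb3, Tgfbr2 and Acvrl1 from E9.5 to E14 (1.50, 1.70 and 1.33).

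The libraries of E8.5 disagreed in a gene-specific way. Replicate 1 was highest for Tgfb1 and Eng, replicate 2 for Tgfb2, Tgfb3, Tgfbr2 and Tgfbr3, and replicate 3 for Tgfbr1 and Acvrl1. Replicate 3 was the lowest of its stage for the other 6 genes. Without it 6 of the 8 genes passed from E8 to E8.5, beside 29.9% of all genes tested. Eng (0.59 ± 0.14), Tgfbr3 (0.63 ± 0.08), Tgfb1 (0.75 ± 0.18), Tgfbr2 (0.40 ± 0.10) and Tgfb3 (0.28 ± 0.07) were then higher and Acvrl1 (-0.38 ± 0.11) lower, with edgeR adjusted p from 8.59e-04 to 0.0266. From E8.5 to E9.5, 4 of the 8 then passed, all lower, beside 43.9% of all genes: Tgfb1 (-0.82 ± 0.18), Tgfb2 (-0.62 ± 0.17), Tgfbr3 and Tgfbr2. Summed markers of visceral endoderm and liver were at 1580 CPM in replicate 3, and their part in these differences was not tested. Nor was the part of counts from the overlapping gene Ttll5 in the Tgfb3 value.

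**Figure D3:**
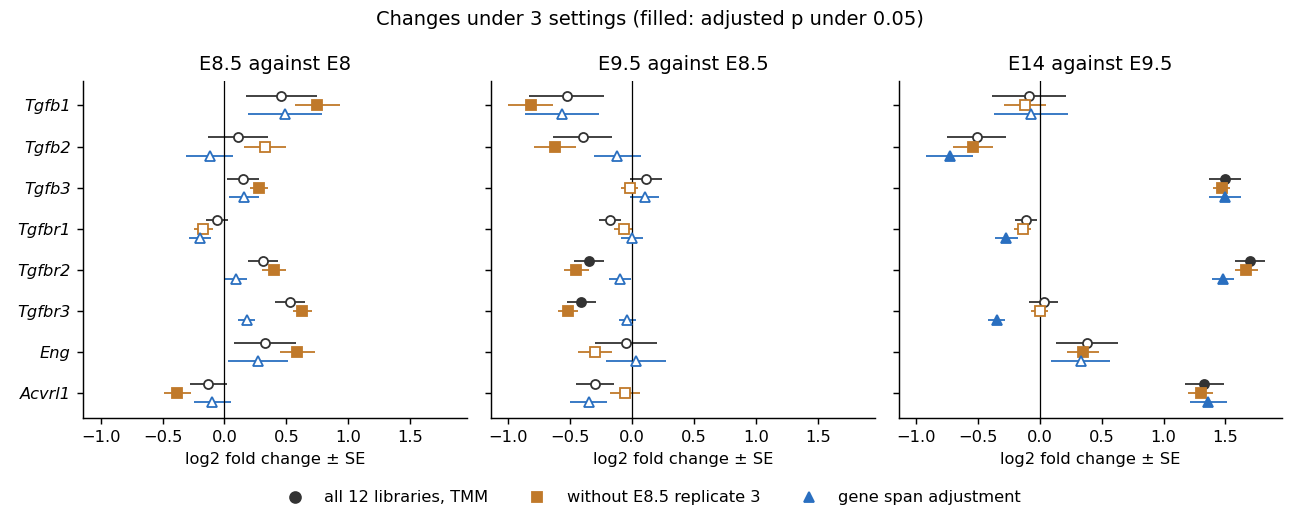
Log2 fold change ± SE (horizontal axis) of each of the 8 genes between neighbouring stages under 3 settings: all 12 libraries (circles), without E8.5 replicate 3 (squares) and with the gene span adjustment (triangles). Filled symbols passed an adjusted p under 0.05; Tgfb3, Tgfbr2 and Acvrl1 are filled from E9.5 to E14 under all 3 settings, and the Tgfbr3 value of that interval lies on either side of 0.

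Levels of different genes were compared per kilobase, because the counts grow with length. The sources used here do not say whether reads in introns were counted, so the levels were scaled both to the gene interval and to the merged exons of GENCODE release M21. Per kilobase of exons at E8, Tgfbr1 led with 17.5 ± 0.705 CPM per kb (SD, n = 3), followed by Tgfb2 with 13.6 ± 0.973, Tgfbr3 with 11.1 ± 0.751 and Eng with 9.42 ± 0.272. Tgfbr2 (2.52 ± 0.0536), Tgfb3 (1.49 ± 0.0677), Tgfb1 (1.33 ± 0.0335) and Acvrl1 (1.29 ± 0.0618) were lower by several-fold, and the libraries of Tgfb1 and Acvrl1 overlapped. At E14 the order on the same exon scale was Eng (14.9 ± 0.768), Tgfbr1 (13.7 ± 0.269), Tgfbr3 (12.2 ± 0.946), Tgfbr2 (7.95 ± 0.260), Tgfb2 (7.86 ± 0.627), Tgfb3 (5.05 ± 0.137), Acvrl1 (2.39 ± 0.137) and Tgfb1 (1.19 ± 0.160). Tgfbr2 and Tgfb2 overlapped in that order and no other neighbours did.

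At E9.5 the exon-scaled levels of Tgfbr3, Eng and Tgfb2 overlapped (12 ± 0.671, 11.5 ± 1.48 and 11.2 ± 0.868 CPM per kb) below Tgfbr1 (14.8 ± 0.123). At E8.5 the 4 highest genes, Tgfbr1, Tgfbr3, Tgfb2 and Eng, overlapped and could not be ordered. Among the 4 lowest, every Tgfbr2 library lay above every Tgfb3 and Acvrl1 library, while Tgfb1 overlapped all 3. Per kilobase of interval Tgfbr1 was also first at E8 (1.85 ± 0.0746 CPM per kb) and Eng at E14 (1.68 ± 0.0862). Tgfbr3 had rank 4 of the 8 at E8 on that scale (0.395 ± 0.0269), where 3.575% of its interval is exon.

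The mix of ligands was expressed as each gene's share of the 3 ligands' counts per kilobase within a library, a ratio that does not depend on the library scaling. Per kilobase of interval, the share of Tgfb2 in replicates 1, 2 and 3 was 63.4%, 60.5% and 60.2% at E8 and 46.3%, 66.2% and 58.5% at E8.5. It was 55.2%, 57.1% and 54.1% at E9.5, and 32.0%, 34.0% and 33.7% in the E14 libraries. The share of Tgfb3 was 14.3% to 15.1% at E8, and it ranged over 12.5% to 17.7% in the next stage and 17.5% to 20.7% at E9.5. In the E14 libraries it was 48.9%, 44.2% and 46.9%. That of Tgfb1 was 22.3% to 25.3% at E8 and 19.1% to 21.9% at E14. In the last interval the mean share of Tgfb3 went from 19.3% to 46.7% and that of Tgfb2 from 55.5% to 33.2%, with no overlap of the libraries. By a two-sided exact permutation test each of these differences had p = 0.1, the smallest that 3 against 3 libraries allow, and an adjusted p = 0.225 over 18 share tests. The 3 shares of a library are bound to each other, so these are not separate results.

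Which ligand led at E14 depended on the length used. Per kilobase of exons Tgfb2 held 55.7% ± 1.50 and Tgfb3 35.9% ± 1.98 at E14 (SD, n = 3), and with no length correction Tgfb2 held 66.3% ± 1.20 and Tgfb3 25.0% ± 1.61. The rise in the Tgfb3 share from E9.5 to E14 was present on all 3 scales, from 12.6% on the exon scale and from 7.84% with no length.

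Among Tgfbr1, Tgfbr2 and Tgfbr3, the share of Tgfbr2 per kilobase of interval was 9.48% ± 0.231, 11.1% ± 1.86, 10.2% ± 1.16 and 28.2% ± 0.882 over the 4 stages (SD, n = 3). The share of Tgfbr1 was 74.6% ± 0.350, 67.3% ± 5.90, 70.5% ± 1.66 and 55.2% ± 1.26 over the same stages, and that of Tgfbr3 15.9% ± 0.437, 21.7% ± 4.04, 19.2% ± 0.497 and 16.6% ± 0.973. Between the last stages the libraries of each of the 3 receptors did not overlap (exact permutation p = 0.1, adjusted p = 0.225). A higher share of 1 gene lowers those of the others, so these are not separate results. The level of Tgfbr3 itself differed by 0.03 ± 0.12 on the log2 scale in that interval. On the exon scale the share of Tgfbr2 went from 8.33% ± 0.875 to 23.5% ± 0.812.

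**Figure D4:**
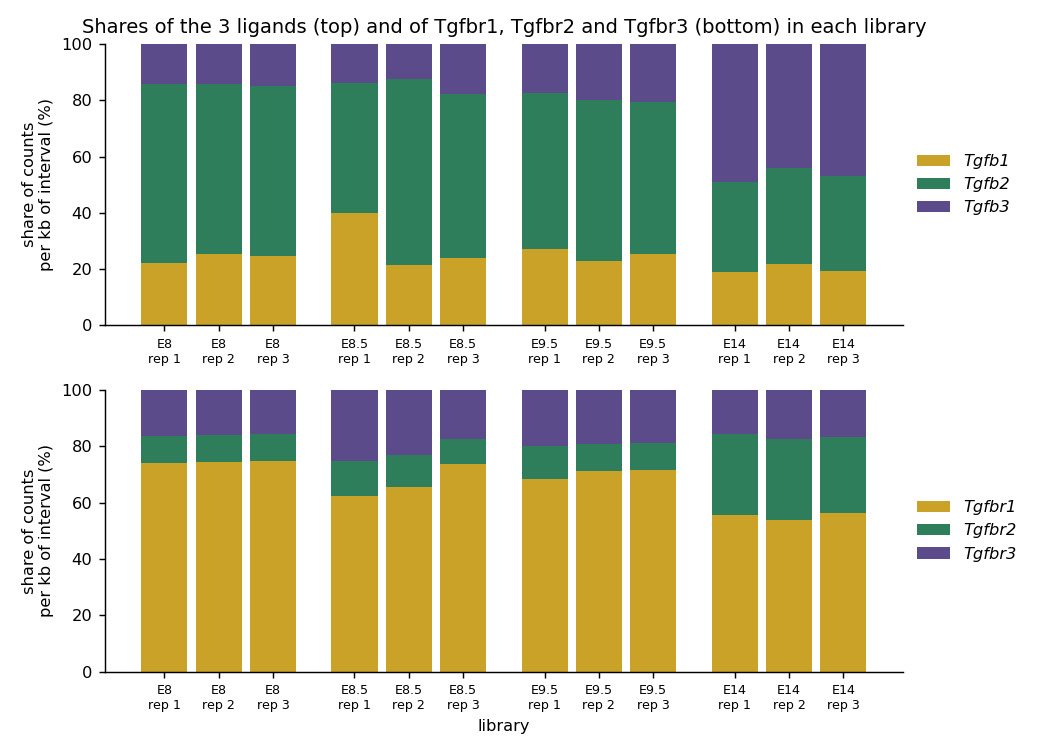
Share of counts per kb of gene interval (vertical axis, percent) in each of the 12 libraries (horizontal axis), for the 3 ligands above and for Tgfbr1, Tgfbr2 and Tgfbr3 below. On this scale Tgfb3 takes 44.2% to 48.9% of the ligand counts per kb in the E14 libraries and 20.7% at most before. Tgfbr2 takes 27.2% to 28.7% of the receptor counts per kb at E14 and 12.6% at most before.

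Cell type markers moved over the same stages. Endothelial and endocardial markers (Pecam1, Cdh5, Tek, Tie1, Kdr, Emcn, Nfatc1 and Cldn5) summed to 430 to 434 CPM at E8 and 408 to 517 CPM at E8.5. The sum was 397 to 447 CPM at E9.5, and 681 to 709 CPM in the E14 libraries. By that stage 7 of these 8 markers rose and Nfatc1 did not pass (-0.52 ± 0.28, edgeR adjusted p = 0.139). The summed fibroblast markers went from 9.72 to 18.6 CPM at E9.5 to 144 to 155 CPM at E14, with 4 of 5 called higher. Epicardial markers went from 35.7 to 115 CPM to 164 to 180 CPM with 2 of 6 called higher. Macrophage and leukocyte markers went from 8.19 to 10.7 CPM to 30.7 to 36.9 CPM, with all 5 called higher. Markers of cushion and valve mesenchyme summed to 676 to 732 CPM at E9.5 and 327 to 369 CPM at E14, with 2 of 6 higher and 2 lower. Vcan made up most of this cushion sum, with means of 648 and 269 CPM, so the sum mainly followed that gene. Smooth muscle and pericyte markers summed to 224 to 235 CPM and 269 to 277 CPM, with 2 of 5 higher and 1 lower. Most of that sum was Cnn1, with means of 163 and 172 CPM. Of all these markers, Dpt of the fibroblast list was at 0 in E8 replicate 1 and the rest were above 0 in every library. Their part in the rise of Tgfb3, Tgfbr2 and Acvrl1 was not tested.

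Eng and Acvrl1 were also set against the summed endothelial markers of the same library. Eng was 8.65%, 9.11% and 8.71% of that sum at E8 and 13.3%, 10.9% and 6.63% at E8.5. It was 11.9%, 10.1% and 11.1% at E9.5 and 8.75%, 9.01% and 8.47% at E14. The E14 values lay within or just below the range of E8 and below all 3 of E9.5, although the CPM of Eng was higher at E14 than at both. Acvrl1 was 0.882% to 1.02% of the sum at E9.5 and 1.41% to 1.52% at E14, above all libraries of E8 and E9.5. The E8.5 value of Acvrl1 in replicate 3 was 1.56%, beside 0.878% and 0.925% in replicates 1 and 2. Tgfb1, also a gene of endothelial cells, was 1.37% to 1.67% of the sum at E9.5 and 0.810% to 0.976% at E14.

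**Figure D5:**
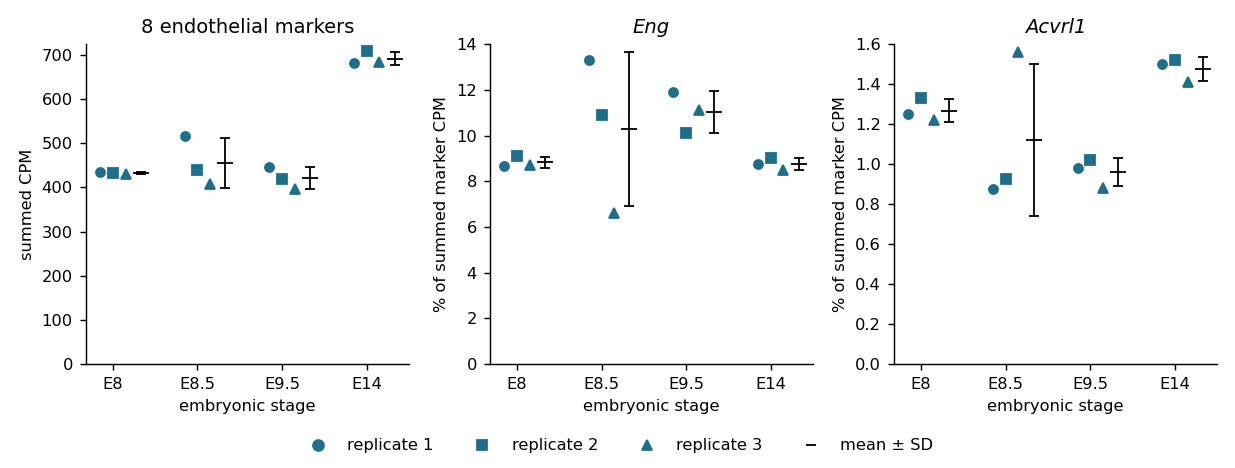
Summed CPM of 8 endothelial and endocardial markers (left), and Eng (middle) and Acvrl1 (right) as percent of that sum, in each library by embryonic stage. Symbols are replicates and black bars the mean ± SD of 3 libraries; the marker sum is 681 to 709 CPM at E14, where Eng is 8.47% to 9.01% of it and Acvrl1 1.41% to 1.52%.

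The wider pathway was described through 4 lists that together hold 50 genes, all of them tested. Between E8 and E8.5 the test called 1 of the 50, the collagen gene Col1a1 (0.85 ± 0.18, edgeR adjusted p = 0.0492). That call ended in a fit of the 2 stages alone (0.152), with the replicate block (0.0765) with 4 other settings (0.0502 to 0.0592) and without any 1 of 10 libraries, all but E8.5 replicate 3 and E9.5 replicate 3 (0.0533 to 0.217). At an unadjusted p under 0.05 there were 26 of the 50, beside 8106 of all 28846 genes. DESeq2 called 16 of the 50, beside 4436 of all genes. Without E8.5 replicate 3 edgeR called 25 of the 50 (16 higher, 9 lower), beside 29.9% of all genes. In the interval to E9.5 the test called 13 higher and 16 lower (58.0%, beside 37.0% of all genes), and in the last interval 22 higher and 15 lower (74.0%, beside 50.0%). With the gene span adjustment the numbers were 11 higher and 9 lower (beside 9650 of all genes), and 19 higher and 18 lower (beside 14605). Without E8.5 replicate 3 they were 13 higher and 21 lower in the interval to E9.5, beside 43.9% of all genes. Against E8, 11 genes were higher and 11 lower at E9.5, and 21 were higher and 19 lower at E14 (44.0% and 80.0% called, beside 24.8% and 60.7% of all genes).

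The latency and activation list holds genes that store and release the ligands. In the last interval 7 of its 13 genes rose and 1 fell (61.5% called, beside 50.0% of all genes), with a median log2 fold change of 0.84 beside 0.01 for all genes. The largest rises were in Lrrc32, which encodes GARP, a cell-surface anchor of latent TGF-beta (2.10 ± 0.31, edgeR adjusted p = 1.37e-04), and in Ltbp3 (1.96 ± 0.13, 3.16e-07) and Ltbp4 (1.41 ± 0.28, 0.00162), latent TGF-beta binding proteins of the matrix. Furin, the convertase that cleaves the ligand precursors, fell (-0.48 ± 0.16, edgeR adjusted p = 0.0235), a call that ended without E9.5 replicate 1 or E14 replicate 1 or 3 (0.0525 to 0.104).

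In the interval from E8.5 to E9.5, 3 genes of the latency list were called higher and 3 lower (46.2%, beside 37.0% of all genes), and 3 and 5 without E8.5 replicate 3. Thbs1, thrombospondin 1, an activator of latent TGF-beta, rose by 1.45 ± 0.17 (edgeR adjusted p = 1.51e-04), from 10.4 to 28.5 CPM. Ltbp2 rose by 1.02 ± 0.20 (edgeR adjusted p = 0.0022), from 0.839 to 1.70 CPM. Itgav, the integrin alpha-v chain of the activating integrins, fell by 0.69 ± 0.09 (-0.69, edgeR adjusted p = 1.95e-04). Ltbp3 (0.36 ± 0.13), the fibrillin gene Fbn1 (-0.51 ± 0.12) and the integrin gene Itgb8 (-0.34 ± 0.08) were also called. These last 3 calls ended with the gene span adjustment (edgeR adjusted p = 0.0848, 0.352 and 0.415) and in a fit of the 2 stages alone (0.136, 0.0566 and 0.0769). The call on Ltbp3 also ended with no filter on low counts (0.0667) and when any 1 of 9 libraries was left out, all but E8.5 replicate 3, E9.5 replicate 1 and E14 replicate 2 (0.0538 to 0.154).

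Of the 12 genes of Smads and their regulators, 2 were called higher and 6 lower from E8.5 to E9.5 (66.7%, beside 37.0% of all genes; median -0.37, beside -0.03). Without E8.5 replicate 3 the numbers were 2 higher and 9 lower, beside 43.9% of all genes. With the gene span adjustment they were 1 higher and 2 lower (beside 9650 of all genes). In a fit of the 2 stages alone they were 1 higher and 3 lower (beside 6099 of all genes). By E14, 2 were higher and 4 lower (50.0%, as over all genes; median -0.09, beside 0.01). The inhibitory Smads fell in the last interval: Smad6 from 112 to 41.1 CPM (-1.45 ± 0.23, edgeR adjusted p = 3.04e-04) and Smad7 from 46.9 to 26.8 CPM (-0.81 ± 0.14, 4.59e-04). Bambi, a pseudoreceptor that dampens the pathway, rose from 53.6 to 70.4 CPM by E9.5 (0.39 ± 0.09, adjusted p = 0.00548 by edgeR) and fell to 38.6 CPM at E14 (-0.87 ± 0.09, 9.05e-06). Smurf2, a ubiquitin ligase acting on the receptors, rose from 62.0 to 81.9 CPM (0.40 ± 0.08, edgeR adjusted p = 0.00119). The Smad2 and Smad3 anchor gene Zfyve9 rose as well (0.35 ± 0.09, edgeR adjusted p = 0.00559), though its value was 0.03 ± 0.05 with the gene span adjustment (0.706).

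Between E8.5 and E9.5 the co-repressor gene Ski fell (-0.48 ± 0.11, edgeR adjusted p = 0.0045). Smad4, the shared partner of the receptor-activated Smads (-0.63 ± 0.21), the ubiquitin ligase gene Smurf1 (-0.53 ± 0.17) and the co-repressor gene Tgif1 (0.26 ± 0.08) were called too. With no filter on low counts the calls on Smad4 and Tgif1 ended (edgeR adjusted p = 0.0693 and 0.0591), and with the replicate block that on Smad4 (0.0508). With the gene span adjustment these 3 had edgeR adjusted p of 0.0915, 0.119 and 0.153, and in a fit of the 2 stages alone 0.136, 0.095 and 0.106. The call on Smad4 ended without any 1 of 9 libraries, all but E8 replicate 1 and E8.5 replicates 1 and 3 (0.051 to 0.105). That on Smurf1 ended without E8.5 replicate 1 or 2 or E9.5 replicate 2 or 3 (0.0653 to 0.116), and that on Tgif1 without E8.5 replicate 1 or E9.5 replicate 2 or 3 (0.0765 to 0.0955).

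The list of the ALK1 branch and type II partners had 5 of 11 genes higher and 5 lower from E9.5 to E14 (90.9% called, beside 50.0% of all genes; median -0.05, beside 0.01). Bmp10, a cardiac ligand of ALK1, rose from 34.8 to 69.9 CPM (1.01 ± 0.10, edgeR adjusted p = 7.08e-06), while Gdf2, which encodes the other ALK1 ligand BMP9, fell from 0.604 to 0.177 CPM (-1.76 ± 0.37, 0.00188). The type II receptor gene Bmpr2 rose (0.76 ± 0.13, edgeR adjusted p = 3.34e-04), and so did the signal transducer Smad5 (0.60 ± 0.06, 9.46e-06). The type II receptor gene Acvr2b fell (-1.48 ± 0.18, edgeR adjusted p = 2.91e-05), as did Id2, a target of BMP signalling (-1.18 ± 0.11, 4.01e-06). One interval earlier, 1 gene of this list rose, Id2 (0.46 ± 0.11), and 5 fell, among them Acvr2b (-0.77 ± 0.17), Smad1 (-0.65 ± 0.09) and Smad9 (-0.56 ± 0.10), with edgeR adjusted p from 2.62e-04 to 0.00704. That is 54.5% of the list, beside 37.0% of all genes, and the counts were also 1 and 5 without E8.5 replicate 3.

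Of 14 known TGF-beta target genes, 7 were higher and 2 lower at E9.5 than at E8.5 (64.3%, beside 37.0% of all genes; median 0.46, beside -0.03), with the same counts without E8.5 replicate 3. By E14, 8 rose and 5 fell (92.9%, beside 50.0% of all genes; median 0.64, beside 0.01). In that last interval 6 rose and 5 fell without E8.5 replicate 3 and in a fit of the 2 stages alone (16285 and 15537 of all genes). With the gene span adjustment 7 rose and 5 fell (14605 of all genes). These genes are also markers of mesenchyme, fibroblasts or smooth muscle and respond to other signals. By E14 the matrix genes Postn (3.13 ± 0.22, edgeR adjusted p = 7.13e-07), Col3a1 (2.89 ± 0.19, 2.42e-07) and Col1a1 (2.26 ± 0.18, 1.50e-06) rose most. Has2, the hyaluronan synthase of cushion matrix, fell from 60.4 to 4.87 CPM (-3.63 ± 0.17, edgeR adjusted p = 2.31e-08). Tagln, an early smooth muscle and heart tube gene, fell from 268 to 30.8 CPM (-3.12 ± 0.08, 4.79e-10), and the mesenchymal factor gene Twist1 from 10.1 to 2.25 CPM (-2.17 ± 0.23, 1.18e-05). Members of this list thus moved in both directions while Tgfb3 and Tgfbr2 rose.

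In the interval before, from E8.5, the largest rises among the target genes were those of Tgfbi, a matrix protein named for its induction by TGF-beta (2.32 ± 0.32, edgeR adjusted p = 4.51e-04), Col3a1 (2.27 ± 0.18, 2.24e-05) and Postn (1.69 ± 0.22, 2.66e-04). Epicardial markers rose in the same interval, all 6 of 6, from a summed 7.67 to 15.3 CPM to 35.7 to 115 CPM, among them Tbx18 (10.5-fold, edgeR adjusted p = 9.82e-05) and Wt1 (4.33-fold, 0.0038). Of the fibroblast markers 2 of 5 rose, and of the cushion and valve markers 3 of 6 rose and 1 fell. The part of these markers in the target genes' values was not tested. Has2 fell by 1.29 ± 0.15 (-1.29, edgeR adjusted p = 1.47e-04). The fibronectin gene Fn1 fell as well (-0.55 ± 0.18, edgeR adjusted p = 0.0337), with overlapping libraries, and that call ended with the gene span adjustment (0.121), in a fit of the 2 stages alone (0.122) and without E8.5 replicate 1 or 2, E9.5 replicate 2 or 3, or E14 replicate 1 or 3 (0.0505 to 0.14).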

How the data were processed

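Total RNA of dissected tissue went into TriZol and into a standard Illumina library preparation, per the labels' protocols. STAR 2.5.0 and Cufflinks 2.2.1 and the builds GRCm38, mm10 and hg38 are named, without roles, per the submitters' processing notes. The deposited table holds read counts per gene interval and library, not normalised by the authors. Which tool counted the reads, on which strand and with which annotation is not given in the sources used here. Of the intervals, 42778 were identical to GENCODE release M21 (GRCm38), 5649 matched by symbol and overlap and 282 did not match. Coordinates are those of the table. Ltbp4 is listed on a pair of nested intervals, and the longer was used.

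Groups were the labelled stages. Libraries of the same stage differed beyond counting noise (chi-square over genes averaging 8.19 to 196), so each counted as 1 sample. Analysis used R 4.3.3 and edgeR 4.0.16. The filterByExpr step kept 28846 genes, TMM factors were 0.913 to 1.07, and 1 robust quasi-likelihood model held the 12 libraries, with 1 coefficient per stage. Fold changes are later against earlier stage, SE are the log2 fold change over the root of F, and p-values were adjusted over all genes tested. Alternatives were RLE and upper-quartile factors, no filter, DESeq2 1.42.0, a replicate block, the compared stages alone, an adjustment for gene span, leaving out globin and small structural RNA genes, and leaving out each library. The fit was tested on simulated data. Shares were compared by exact permutation over libraries. The replicate numbers come from the labels' titles.

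The 8 genes and the lists were chosen with earlier results of these data known. Text names all 8 genes, up to 3 genes up and 3 down per pathway list and comparison (those of the neighbouring intervals are printed), and the 3 genes most correlated with each of the 8, of which 1 is not reported here. Of all the marker lists, those of erythroid cells (244 to 5790 CPM summed), megakaryocytes and platelets (8.73 to 19.8 CPM), foregut endoderm (4.54 to 51.1 CPM) and neural tube (1.16 to 4.55 CPM) are not described further. Ppbp, of the megakaryocyte list, was at 0 in all E8 libraries.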

Additional observations from a re-analysis of the deposited data

How the results depend on the processing

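The rises of Tgfb3, Tgfbr2 and Acvrl1 from E9.5 to E14, and the falls of Tgfb2 and Tgfbr1 from E8 to E14, kept their direction and call under every alternative run. Of 800 values of the 8 genes under alternatives, 723 kept direction and side of the threshold. With the same direction 35 newly passed and 23 lost the call, and 19 changed sign. Those that changed sign include Tgfbr3 with the span adjustment, which then passed as lower from E9.5 to E14 and from E8 to E14. Causes of these changes were not tested unless stated.

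The number of the 8 genes called changed as follows. From E8 to E8.5 it was 1 with DESeq2 and with globin and small structural RNA genes left out, and 0 to 6 with a library left out. From E8.5 to E9.5 it was 0 with the gene span adjustment and for the compared stages alone (9650 and 6099 of all genes). With a library left out it was 0 to 4. From E9.5 to E14 it was 6 with the span adjustment (14605 of all genes) and 6 for the stages alone (15537 of all genes), and 3 to 5 with a library left out. From E8 to E9.5 it was 1 with upper-quartile factors, 1 with the span adjustment, 2 with DESeq2, 5 for the stages alone (7259, 7470, 8030 and 9877 of all genes in these 4 settings), and 0 to 3 with a library left out. From E8 to E14 it was 5 with no filter and 7 with the span adjustment (17382 and 17935 of all genes). The span adjustment added Tgfbr3 as lower. With a library left out the number was 5 to 6 (15649 to 19174 of all genes).

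Over all genes, the 341 calls from E8 to E8.5 (257 higher, 84 lower) became 190 with no filter, 3 with the replicate block, 118 with the span adjustment (69 higher, 49 lower), 897 without globin and small structural RNA genes (561 higher, 336 lower), 9 for the stages alone, 4436 with DESeq2, and 0 to 8865 with a library left out, the lowest (edgeR, with 5398 genes at unadjusted p under 0.05) without E8 replicate 3 and the highest without E8.5 replicate 3. From E8.5 to E9.5 the 10659 calls became 6099 for the stages alone and 7044 to 13015 with a library left out (7044 without E9.5 replicate 3). From E8 to E9.5 the 7163 became 4641 to 9409 with a library left out (4729 and 4641 without E9.5 replicates 2 and 3).

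Same-numbered libraries did not deviate together (r of -0.084 to 0.13 over 18 pairs, 6 of which matched their own number best). No pairing by number was thus detected, though 3 libraries per stage are too few to exclude it. With the replicate block Eng was at 0.00 from E8.5 to E9.5, a change of sign from -0.05. The block changed no call of the 8 genes; it ended those of Smad4 from E8.5 to E9.5 and of Col1a1 from E8 to E8.5 among the pathway genes named.

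With the span adjustment Tgfb2 was at -0.12 from E8 to E8.5, Eng at 0.03 from E8.5 to E9.5, and Tgfbr3 at -0.35 from E9.5 to E14 and -0.21 from E8 to E14. Signs also changed with a library left out. From E8 to E8.5 the values were -0.02 to 0.59 for Eng, -0.30 to 0.33 for Tgfb2 and -0.17 to 0.04 for Tgfbr1. From E8.5 to E9.5 they were -0.30 to 0.31 for Eng, -0.62 to 0.01 for Tgfb2 and -0.02 to 0.22 for Tgfb3. From E9.5 to E14 they were -0.24 to 0.03 for Tgfb1 and -0.05 to 0.07 for Tgfbr3. From E8 to E9.5 they were -0.19 to 0.00 for Tgfb1 and -0.17 to 0.02 for Tgfbr2.

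Ligand shares in stage order, per kb of exons, were 8.12%, 10.3%, 8.90% and 8.41% for Tgfb1, 82.8%, 80.1%, 78.5% and 55.7% for Tgfb2 and 9.04%, 9.58%, 12.6% and 35.9% for Tgfb3. With no length they were 7.43%, 9.51%, 8.27% and 8.72%, 87.0%, 84.6%, 83.9% and 66.3%, and 5.55%, 5.92%, 7.84% and 25.0%. Only the divisor differs between these scales. Tgfb1, Tgfb3 and Acvrl1 had the lowest counts of the 8 genes. Precision did not follow the counts alone: from E9.5 to E14 their SE was 0.30, 0.13 and 0.16. Among the genes with higher counts it was 0.24 for Tgfb2, 0.25 for Eng, 0.09 for Tgfbr1 and 0.12 for Tgfbr2 and Tgfbr3.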

Other observations

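Beyond the pathway, each of the 8 genes was compared with 10603 genes that had a mean of at least 5 CPM, by Pearson's r of log2 CPM over the 12 libraries. These correlations are descriptions without a test: the 12 libraries fall into 4 stages and share their scaling, so that genes with the same step at E14 reach a high r. The 3 genes closest to Tgfb3 were Lmcd1, a LIM-domain protein gene of heart and muscle (r = 0.997), Cd36, the fatty acid transporter gene (0.995), and Tmem204 (0.994). Lmcd1 had a mean of 5.07 CPM at E9.5 and 33.9 CPM at E14, and Cd36 20.7 and 105 CPM, beside 6.04 and 17.1 CPM for Tgfb3. Closest to Tgfbr2 were Slc7a15 (0.996), the cholesterol exporter gene Abca1 (0.995) and Ankrd50 (0.992), of which Abca1 had 21.1 CPM at E9.5 and 59.2 CPM at E14. Acvrl1 was followed by Slc31a2 (0.973), Snx33 (0.972) and Prnd (0.971), with Prnd at 3.23 CPM at E9.5 and 13.0 CPM at E14.

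The closest patterns of the other 5 genes were the following. Tgfbr3 was closest to Trrap (r = 0.986), Gatad2b (0.985) and Ube2k (0.984), each highest at E8.5, as with Ube2k at 51.3, 91.5, 55.5 and 54.8 CPM at E8, E8.5, E9.5 and E14. Tgfbr1 was closest to Zfp317 (0.982), Ssh2 (0.969) and Zfp711 (0.968), whose stage means fell from each stage to the next. Tgfb1 was closest to Gtf2i (0.983), Zfp865 (0.966) and Ccdc106 (0.964), Tgfb2 to Gabbr1 (0.956) and Agpat2 (0.940), and Eng to Thtpa (0.945), Minos1 (0.938) and Tacc1 (0.934).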
